A study of Homo sapiens with 3 samples.

Results

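The EZH2 chromatin immunoprecipitation (ChIP) of PANC-1 cells is described here by the genes nearest to its peaks. All 21639 peaks called for the EZH2 antibody against input chromatin were taken, out of 40678 peaks in both lists of the series, and each summit was assigned to the closest transcription start site (TSS) of a protein-coding gene on GRCh37 (hg19). The peak widths in base pairs (bp) were then summed for each gene, and genes and gene classes were ordered by that covered sequence. The 19039 peaks of the PHF13 antibody served only as a contrast.

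The series holds 3 ChIP-seq libraries of PANC-1, an established human cell line of pancreatic ductal carcinoma: an input, a PHF13 and an EZH2 library, 1 of each. The cells were wildtype, with no treatment named, and their chromatin was fixed with EGS, a crosslinker that joins proteins to each other, and then with paraformaldehyde and formaldehyde. The labels mention a single 15 cm plate and no second culture, so there are no replicates, no test was possible, and each interval below covers counting error only. No library of cells that lack EZH2 was analysed here, so what the antibody bound was not checked against one.

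EZH2 is the catalytic subunit of Polycomb repressive complex 2 (PRC2), which methylates lysine 27 of histone H3. In vertebrate cells PRC2 is known to gather at CpG islands, the CpG-rich starts of many genes, where transcription is low, and above all at genes of embryonic development such as homeobox transcription factors and secreted signals. PHF13 is a PHD-finger protein that binds methylated histone H3 at lysine 4, a mark of active starts.

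The ranking depends on which peaks are summed, and the sequences beneath the leading peaks show how unlike these peaks are. Each line gives 100 bases of GRCh37, plus strand, around the summit of the widest EZH2 peak of a leading gene that could be printed without untranslated sequence, with every CpG in capitals. The first 3 genes led the sum over all peaks, PAX5 and EPHB3 were among the first 5 when repeated sequence was left out, and PDE4DIP and AUTS2 were among the first 3 when only summits near a start counted.
RP11-685N3.1 (chr2:92232028-92232127): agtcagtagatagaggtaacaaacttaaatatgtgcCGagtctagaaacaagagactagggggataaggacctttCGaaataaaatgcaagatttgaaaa
CWH43 (chr4:48988495-48988594): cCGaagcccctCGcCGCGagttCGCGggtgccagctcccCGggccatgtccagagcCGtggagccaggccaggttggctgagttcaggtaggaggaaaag
ZNF33B (chr10:42672915-42673014): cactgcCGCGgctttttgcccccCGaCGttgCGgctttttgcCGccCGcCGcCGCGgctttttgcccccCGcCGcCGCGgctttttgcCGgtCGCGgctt
PAX5 (chr9:37026173-37026272): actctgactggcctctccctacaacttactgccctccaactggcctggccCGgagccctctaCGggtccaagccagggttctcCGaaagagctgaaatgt
EPHB3 (chr3:184321481-184321580): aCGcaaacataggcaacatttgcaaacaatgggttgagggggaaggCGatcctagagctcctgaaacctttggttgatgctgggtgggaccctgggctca
PDE4DIP (chr1:144854081-144854180): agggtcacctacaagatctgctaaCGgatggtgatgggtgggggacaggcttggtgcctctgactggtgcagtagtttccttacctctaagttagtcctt
AUTS2 (chr7:69064720-69064819): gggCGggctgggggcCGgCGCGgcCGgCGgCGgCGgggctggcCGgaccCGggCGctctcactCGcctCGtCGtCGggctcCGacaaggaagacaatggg

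The RP11-685N3.1 window lies between genes, 1693681 bp from the start it was assigned to, and the median 24-base word in it occurred 7 times in the genome. The ZNF33B window, 417150 bp from its start, holds 17 CpGs, and its median word occurred 3 times. The AUTS2 window lies 91 bp upstream of a start, holds 16 CpGs, and its median word occurred once, as did that of PAX5, 349 bp downstream of a start in an intron.

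Over all protein-coding genes, 7916 of 20163 (39.3%) received at least 1 EZH2 peak, and 2561 (12.7%, 95% Wilson interval 12.25 to 13.17) received at least 1 kb of peaks. A summit within 5 kb of one of their starts was present at 4369 genes (21.7%). These 3 shares are the background against which the gene classes below are read. For PHF13, the same counts were 7505 genes (37.2%), 836 (4.15%) and 3601 (17.9%). Among genes with an EZH2 peak, the median covered length was 517 bp, and 1224 genes held 50% of all EZH2-covered sequence, which amounted to 7847332 bp.

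Of the 25 genes with the most EZH2-covered sequence, 2 were in the developmental transcription factor group. RP11-685N3.1, an unnamed gene model on chromosome 2, was assigned 171 peaks and 68024 bp, followed by CWH43, which acts in the lipid remodelling of membrane anchors, with 106 peaks and 31727 bp. The zinc finger genes ZNF33B and ZNF722 were assigned 31181 and 25231 bp, and TPTE, a phosphatase-like gene of the testis, 28846 bp. These genes border long stretches without any other protein-coding start. For TPTE and ZNF722, 100% of the covered sequence came from summits over 50 kb away, and for RP11-685N3.1 it was 97.3%. The sequence closer to the start of RP11-685N3.1, ZNF33B, TPTE and ZNF722 than to any other start ranged from 801 to 2228 kb, compared with a median of 54.7 kb over all genes.

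Across the 25 leading genes, 21 received most of their covered sequence from summits over 50 kb away, 16 had none within 5 kb, and 22 had less than 50% of it at single-copy summits, which are summits whose median 24-base word occurs once in the genome. For 11 of the 25, all covered sequence lay within 1 Mb of an assembly gap of at least 1 Mb, where the centromeres and other unassembled blocks are. The PHF13 list covered the same places. RP11-685N3.1 had 52751 bp of PHF13 peaks, CWH43 28537 bp and ZNF33B 27684 bp, and TPTE had more PHF13 than EZH2 sequence (30318 bp). In total, 8 of the 25 genes had more PHF13 than EZH2 sequence, 19 of the 25 were also among the 25 leading genes of PHF13, and 884 of the 1355 EZH2 peaks assigned to them (65.2%) overlapped a PHF13 peak. In the whole EZH2 list, 10.3% of peaks overlapped one. Whether these regions carry EZH2 or gather reads in any library cannot be told apart with 1 library per antibody.

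EPHB3 and PAX5 had the least PHF13 sequence among the 25, and the next lowest, TP53TG3D, had 6264 bp. EPHB3, an ephrin receptor tyrosine kinase that guides axons and positions epithelial cells, was assigned 16 peaks and 9814 bp, of which 95.3% were single-copy, compared with 144 bp of PHF13 peaks. Its peaks spread over the locus: one of 1316 bp covered an exon at the start, one of 1242 bp lay in an intron 7424 bp downstream, and one of 1270 bp lay 23995 bp downstream, beyond the gene. PAX5, the transcription factor of B-cell identity, was assigned 10 peaks and 9650 bp, all single-copy, compared with 636 bp of PHF13 peaks. A PAX5 peak of 2506 bp lay on an intronic position 349 bp downstream of a start, with 196 fragments at its summit, and another of 2362 bp lay 2590 bp upstream of a start. The local background at the EPHB3 and PAX5 summits had medians of 19.3 and 22.3 fragments, above the median of 7.28 over all EZH2 peaks, and the part of a higher DNA copy number at these places was not tested.

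When only single-copy summits were summed, 5 of the 25 leading genes remained among the first 25, and PAX5, RP11-685N3.1, EPHB3 and PAX2 led the order. PAX2, a transcription factor of the developing kidney and eye, had 7123 bp over 12 peaks, all single-copy, and 325 bp of PHF13 peaks. The next genes not among the 25 were TENM4, a teneurin of neuronal contacts, with 7014 bp at single-copy summits, ZNF516 with 6795 bp, KALRN with 6522 bp, and NTN1, the axon guidance ligand netrin, with 6433 bp. The widest PAX2 peak, 2147 bp, lay 79299 bp upstream of the nearest PAX2 start, between genes. In NTN1, a peak of 2553 bp had its summit 857 bp downstream of a start and another of 2213 bp lay 17893 bp upstream.

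When only summits within 5 kb of a start were summed, another set of genes led. These genes were chosen after their values were seen. PDE4DIP, which encodes a protein of the centrosome and Golgi, had 5900 bp within 5 kb, PAX5 5086 bp, AUTS2, a gene of neuronal development, 5017 bp, the kinase gene RPS6KA2 4595 bp, and KALRN 4522 bp. At some of them the sequence lay at several starts. AUTS2 had peaks of 2010, 1732 and 1275 bp, each within 175 bp of a different start, and SYT2, a calcium sensor of synaptic vesicles, had 2 peaks of 2510 and 1909 bp within 173 bp of a start. At PDE4DIP, 18 peaks were assigned and 74.5% of their sequence was single-copy. All 25 of these genes lay away from large gaps, 15 had single-copy summits only, and 7 had no PHF13 peak, among them SYT2, the ETS factor gene FLI1 and the homeobox gene EMX1. Over all protein-coding genes, 12658 of 20163 had no PHF13 peak, so its absence is the more common state of a gene. Of the 202 EZH2 peaks of these 25 genes, at any distance, 3 (1.49%) overlapped a PHF13 peak. Among all EZH2 peaks within 5 kb of a start the share was 4.45%, and among the single-copy ones 2.11%. Just 1 gene, PAX5, was among the first 25 in all 3 orders.

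**Figure D1:**
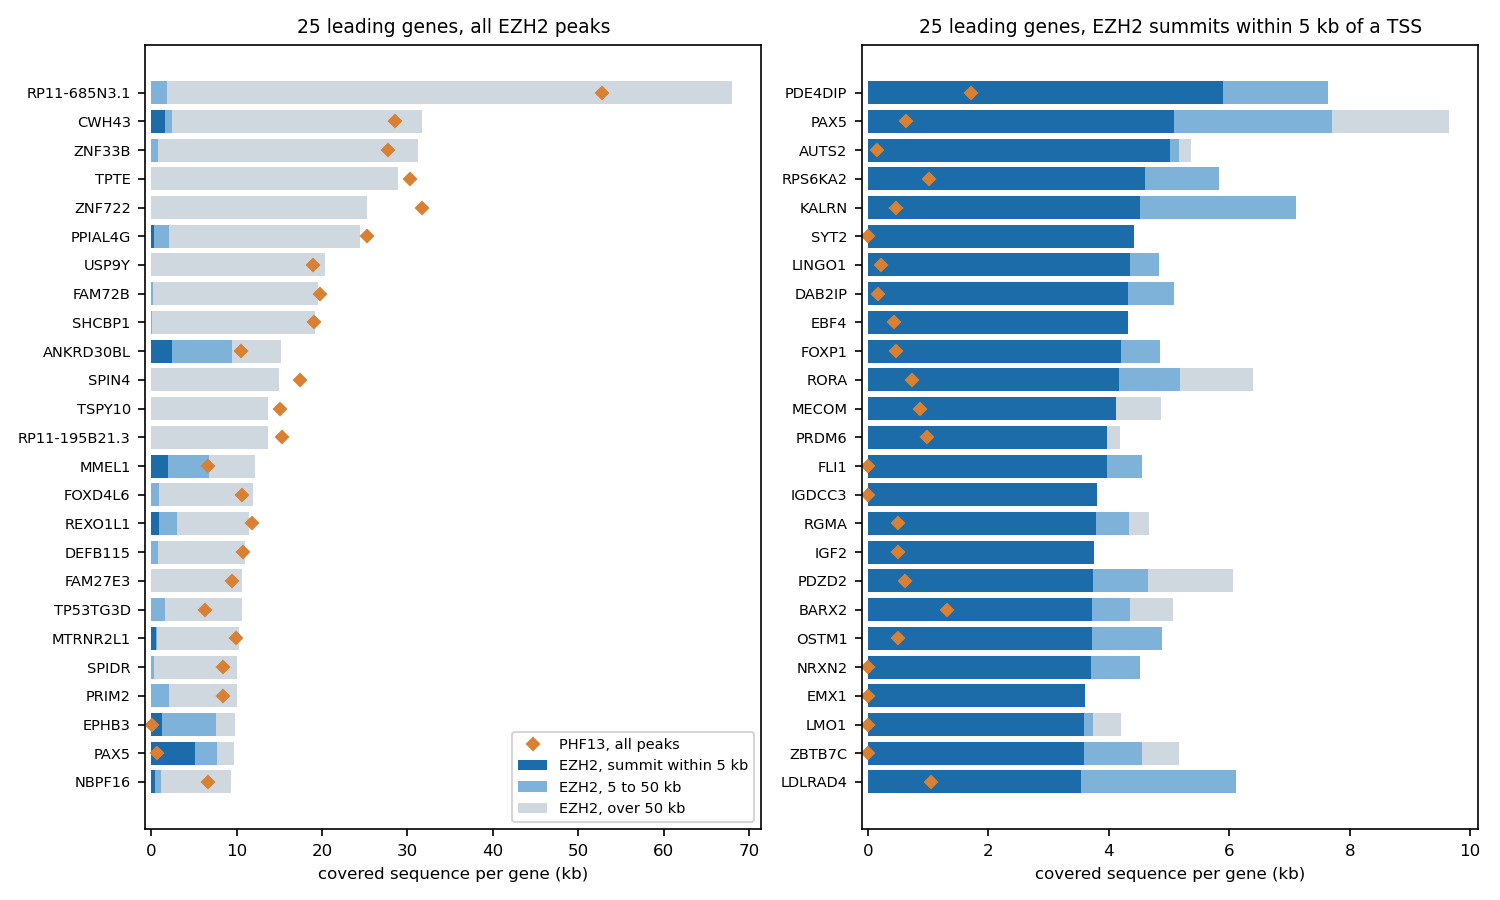
Covered sequence per gene in kb for the 25 leading genes by all EZH2 peaks (left) and by EZH2 summits within 5 kb of a TSS (right); bars give EZH2 peaks by distance from summit to TSS and diamonds give all PHF13 peaks of the gene. On the left most bars are grey, with summits over 50 kb away, and the diamonds of EPHB3 and PAX5, at 144 and 636 bp, lie lowest, while those of the other genes lie between 6264 and 52751 bp; on the right the diamonds lie between 0 and 1717 bp.

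The 100 leading genes were compared in the same way. The 100 leading genes by all peaks held 11.9% of EZH2-covered sequence and 1.47 times as much EZH2 as PHF13 sequence. Of their covered sequence, 37.2% was single-copy and 43.7% lay near a large gap. The 100 leading genes by summits within 5 kb had 9.61 times as much EZH2 as PHF13 sequence, with 95.1% single-copy and none near a large gap, and 1.60% of their peaks were shared. The ratio over all genes was 1.85. Both sets were picked for their EZH2 sequence, so these ratios are no test of EZH2 against PHF13. Of all EZH2 peaks within 5 kb, 86.4% were single-copy, 0.58% lay near a large gap and 4.45% overlapped a PHF13 peak. The genes leading within 5 kb also had a larger median share of the genome than other genes, at 258 kb around their starts.

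The distance to the start separated the EZH2 peaks by width and sequence. Within 1 kb of a start lay 4128 summits, 19.1% of the list (95% interval 18.6 to 19.6), but 39.1% of its covered sequence. Their median width was 470 bp, and 1241 of them exceeded 1 kb. Summits between 1 and 5 kb had a median width of 213 bp, and those over 500 kb had one of 205 bp. The CpG observed/expected ratio over 500 bp at the summit, which compares the CpGs present with the number its C and G content would give, had a median of 0.734 within 1 kb and of 0.220 to 0.275 at greater distances. PHF13 peaks had a median width of 194 bp within 1 kb, close to the 186 bp between 5 and 50 kb, and a median CpG ratio of 0.751 within 1 kb. Within 1 kb lay 13.7% of PHF13 peaks and 13.9% of PHF13-covered sequence.

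The overlap with PHF13 peaks was counted by distance and copy number. Of the 1240 EZH2 summits over 500 kb from a start, 51.9% overlapped a PHF13 peak, 66.9% lay near a large gap, and 26.1% were single-copy. Within 5 kb, 117 of 5554 single-copy EZH2 peaks (2.11%, 95% interval 1.76 to 2.52) overlapped a PHF13 peak, and 169 of 875 multi-copy peaks (19.3%, 16.8 to 22.1) did. Over 50 kb, the shares were 3.80% of single-copy and 38.7% of multi-copy peaks. Thus the shared percentage moved with both distance and copy number.

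**Figure D2:**
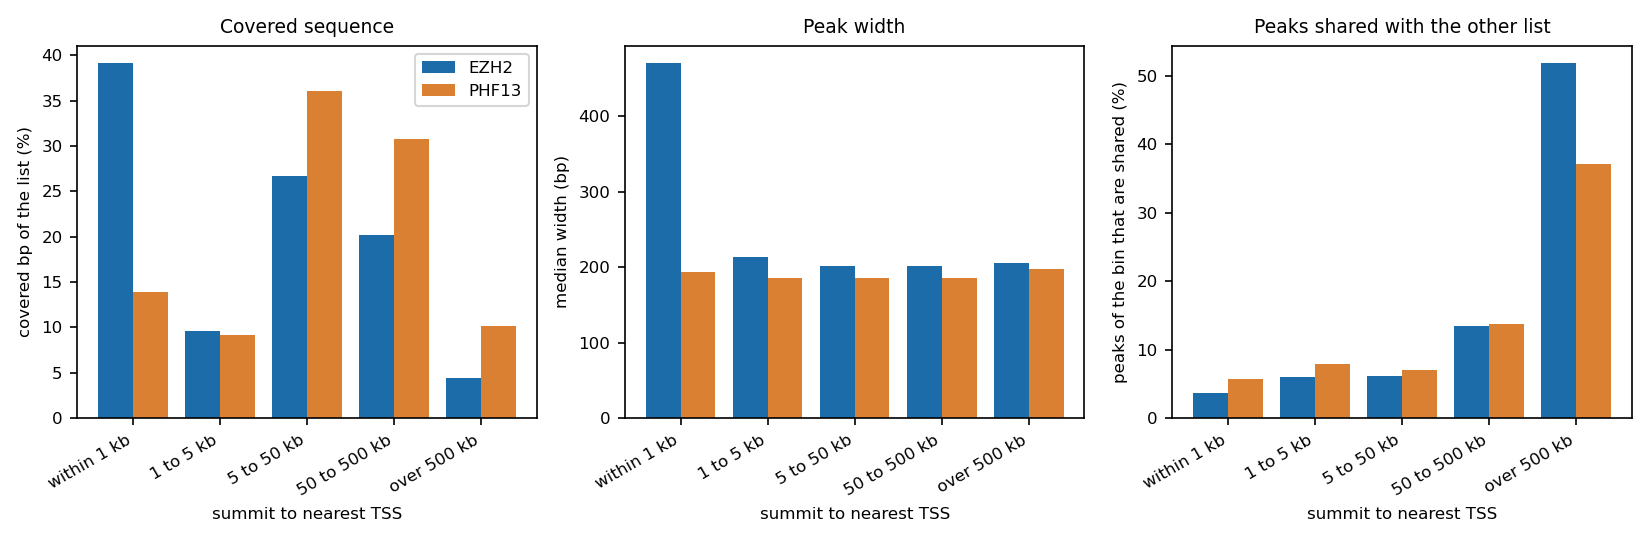
Share of covered sequence (%), median peak width (bp) and share of peaks overlapping the other list (%) for EZH2 and PHF13 peaks in 5 bins of distance from summit to nearest protein-coding TSS. The EZH2 bar within 1 kb reaches 39.1% of covered sequence and 470 bp of width, and the shared percentage is highest over 500 kb in both lists.

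Around the gene starts, most EZH2 sequence lay downstream. At each distance from the 5′ end of the gene record, the percentage of protein-coding genes covered by a peak was counted. For EZH2 it was highest 300 bp downstream, at 7.62%, and stayed above 50% of that value from 300 bp upstream to 1200 bp downstream. At 1000 bp it was 5.46% downstream and 1.14% upstream. For PHF13 the highest value was 2.88%, 100 bp downstream, and the range above 50% of it went from 200 bp upstream to 400 bp downstream. Of the EZH2 sequence with summits within 5 kb, 64.5% lay at summits downstream of the assigned start, and this share was 77.6% with 1 start per gene. That 1 start is the 5′ end of the gene record, so a peak at an inner start of the gene counts as downstream. The same holds for the percentages by distance from that end. Among named genes, the peaks of EMX1 (3423 bp, summit 141 bp downstream), LRP2 (2959 bp, 164 bp downstream) and WNT3A (2262 bp, 191 bp downstream) extended into the gene, whereas the peak of BARX2 (3373 bp) had its summit 2310 bp upstream.

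**Figure D3:**
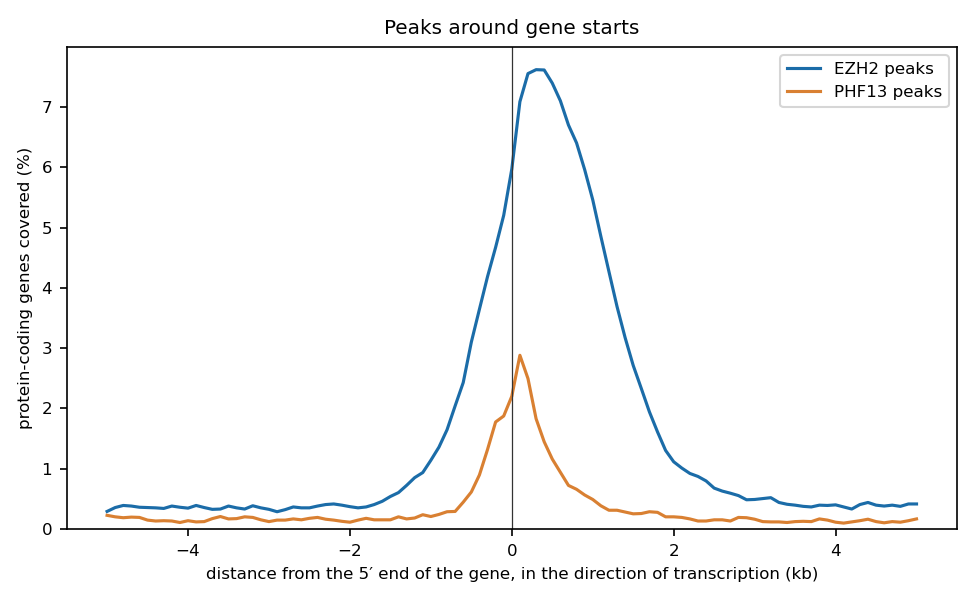
Percentage of protein-coding genes covered by a peak (vertical axis) against distance from the 5′ end of the gene in kb, positive in the direction of transcription, for EZH2 and PHF13 peaks. The EZH2 line peaks at 7.62% at 300 bp downstream and falls more slowly on the downstream side, and the PHF13 line peaks at 2.88%.

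The CpG content of the gene start was set beside the amount and the presence of EZH2 sequence. Protein-coding genes were divided into 5 equal groups by the CpG ratio over 1000 bp at their 5′ end. At least 1 EZH2 summit within 5 kb was found at 17.7% of genes in the lowest group and at 21.8% to 23.8% in the other 4. At least 1 kb within 5 kb was found at 3.57%, 6.23%, 8.62%, 10.1% and 11.1% from the lowest to the highest group. For PHF13, the share with any peak rose from 12.2% to 24.2%, and at most 0.273% of a group had 1 kb.

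**Figure D4:**
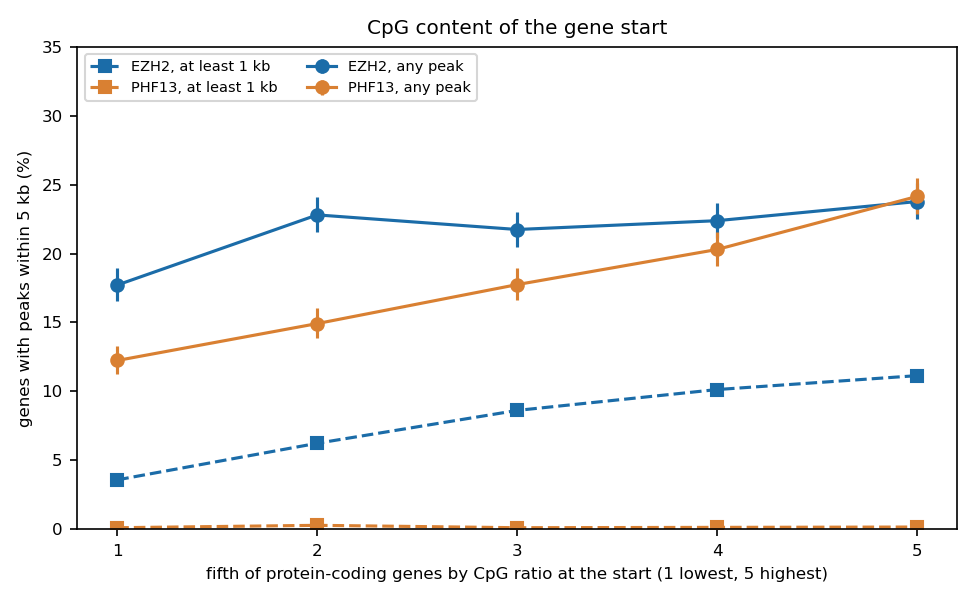
Percentage of protein-coding genes with any peak (circles, solid) or at least 1 kb of peaks (squares, dashed) at summits within 5 kb, by 5 equal groups of genes ordered by the CpG ratio at the gene start, for EZH2 and PHF13; bars on the circles are 95% Wilson intervals. The EZH2 share with at least 1 kb goes from 3.57% to 11.1%, while the PHF13 share with any peak goes from 12.2% to 24.2%.

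The gene classes were formed by symbol, 32 in all, and each was described by the share of its genes with at least 1 kb of EZH2 peaks, beside 12.7% over all genes. The 95% interval lay above 12.7% for 20 classes, included it for 5 and lay below it for 7. This share does not allow for how much sequence lies nearest to the starts of a class. Per Mb of that sequence, all genes had 2745 bp of EZH2 peaks, and the classes fell in another order. Unclustered cadherin and protocadherin genes, above 12.7%, had 792 bp, and keratin genes, below it, had 5143 bp. The 428 developmental transcription factor genes made up 2.12% of genes and held 6.52% of EZH2-covered sequence. Of them, 301 (70.3%) had a peak, 178 (41.6%, 37.0 to 46.3) had at least 1 kb, and 223 (52.1%) had a summit within 5 kb. For PHF13, 205 (47.9%) had a peak, next to 37.2% of all genes, and 30 (7.01%, 4.95 to 9.83) had at least 1 kb, next to 4.15%. A PHF13 summit within 5 kb was present at 63 (14.7%), and its interval (11.7 to 18.4) includes the 17.9% of all genes. These genes also hold 3.30% of the genome by nearest start, more than their share of genes, and the part of this larger space was not tested. With only summits within 5 kb, 28.5% of them and 7.93% of all genes had at least 1 kb.

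Homeobox genes outside the HOX clusters formed the largest developmental class. Of 153, 119 had an EZH2 peak and 83 (54.25%, 46.4 to 61.9) at least 1 kb, and the median gene had 1186 bp. They had 7.27 times as much EZH2 as PHF13 sequence, and 35.1 times within 5 kb. Over all genes these ratios were 1.85 and 3.92. IRX4, SIX2 and MEIS1 led with 6091, 5862 and 5603 bp. SIX2, a factor of kidney progenitors, had its widest peak (2030 bp) 159826 bp upstream, and the widest peak of MEIS1, a partner of HOX proteins, (2870 bp) lay in an intron 69320 bp downstream of the nearest start. BARX2 and EMX1 carried 2 of the widest peaks of the whole list, of 3373 and 3423 bp, and EMX1 had no PHF13 peak.

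The PAX genes were few but wide. Of 9, 7 had an EZH2 peak and 5 at least 1 kb, which are PAX5, PAX2, PAX7 (4445 bp), PAX3 (2447 bp) and PAX6 (1888 bp). PAX1 and PAX8 had PHF13 peaks only, of 1029 and 649 bp. The PAX3 sequence had no summit within 5 kb of a start, while 1651 of the 1888 bp of PAX6 did. Given 9 genes, the interval of the share with 1 kb was wide, from 26.7% to 81.1%.

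The HOX clusters had lower shares than the other homeobox genes. Of 39 HOX genes, 12 (30.8%) had an EZH2 peak and 4 (10.3%, 4.06 to 23.6) had at least 1 kb, which is near or below the background of 39.3% and 12.7%. HOXA3 had 2819 bp over 4 peaks, HOXA2 1556 bp, HOXD3 1477 bp and HOXA11 1333 bp, and 3 of these 4 lie in the HOXA cluster. In that cluster 6 of 11 genes had a summit within 5 kb, and in the HOXD cluster 4 of 9. No peak was assigned to the 10 HOXB genes, of which 5 had a PHF13 summit within 5 kb, and HOXC4 and HOXC13 were the HOXC genes with an EZH2 peak. HOX genes sit close together, and by nearest start the HOXA genes held 0.00606% of the genome and 0.0899% of EZH2-covered sequence. For the HOXD genes these shares were 0.00492% and 0.0391%, for HOXC 0.00979% and 0.00757%, and for HOXB 0.00814% and 0%.

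Other families of developmental regulators had shares between 33.3% and 47.1%. At least 1 kb was found at 23 of 52 forkhead genes (44.2%), 8 of 17 T-box genes (47.1%), 8 of 20 SOX genes (40.0%), 23 of 66 tissue-specific bHLH genes (34.8%) and 24 of 72 GATA, ZIC, GLI and SALL genes (33.3%). TBX15, TBR1 and TBX21 had 2064, 2054 and 1930 bp, SOX2, SOX6 and SOX17 3738, 3477 and 2683 bp, and BHLHE23, NEUROD2 and ASCL2 4007, 3787 and 3083 bp. TBR1, a factor of cortical neurons, and NEUROD2 had no PHF13 peak. The forkhead class is mixed: FOXD4L6 (11965 bp) and FOXD4L5 (8655 bp) are recent copies of one gene, with 0% and 25.6% of their sequence single-copy and 10644 and 4896 bp of PHF13 peaks, whereas FOXF1, a factor of mesoderm, had 6312 bp, 88.9% single-copy, and 349 bp of PHF13 peaks. Among the nuclear receptor, TFAP2, IRF, ETS and SNAI genes, 34 of 102 had at least 1 kb, led by RORA (6402 bp), FLI1 (4555 bp) and NR2F2 (4467 bp). All NR2F2 sequence came from summits over 50 kb away, and none of that of FLI1 did. By Mb of nearest sequence, forkhead (7143 bp), bHLH (5890 bp), T-box (3636 bp) and GATA, ZIC, GLI and SALL genes (3452 bp) lay above the 2745 bp of all genes. SOX genes (2594 bp) and the nuclear receptor, TFAP2, IRF, ETS and SNAI class (2727 bp) lay slightly below it.

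Secreted signals and their receptors had at least 1 kb at 166 of 522 genes (31.8%), and channel and synapse genes at 84 of 228 (36.8%). Of 52 WNT ligands, receptors and antagonists, 44 (84.6%) had an EZH2 peak, 24 (46.2%, 33.3 to 59.5) had at least 1 kb and 37 (71.2%) had a summit within 5 kb. LGR6, a receptor for R-spondins, had 4041 bp, the ligand WNT3A 3491 bp and the R-spondin RSPO3 3253 bp. Most of the WNT-class sequence was proximal, with 82.0% of it at summits within 5 kb, and it had 6.03 times as much EZH2 as PHF13 sequence. At least 1 kb was also found at 21 of 53 FGF, hedgehog and Notch genes, led by FGF3 (4214 bp), FGF13 (3653 bp) and FGF9 (3277 bp), and at 22 of 66 TGF-beta, BMP and GDF genes, led by FSTL4 (4758 bp), GDF7 (2610 bp) and GREM1 (2585 bp). At GDF7, GREM1, a secreted BMP antagonist, and IHH, the hedgehog ligand of cartilage and gut (3128 bp), all sequence came from 1 peak. Among G protein-coupled receptors, 64 of 271 (23.6%) had at least 1 kb, with ADGRB1 (5446 bp), ADGRD1 (4993 bp) and GALR1 (4409 bp) first.

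Axon guidance and channel genes had shares between 26.6% and 43.8%. At least 1 kb was found at 35 of 80 axon guidance genes (43.8%, 33.4 to 54.7), 41 of 94 potassium channel genes (43.6%, 34.0 to 53.7), 26 of 70 sodium and calcium channel genes (37.1%) and 17 of 64 neurotransmitter receptor channel genes (26.6%). KCNIP1, KCND3 and KCNQ1 had 4381, 4288 and 4130 bp, and KCND3, a channel subunit of heart and neurons, had no PHF13 peak. CACNA1B and CACNA1C, subunits of voltage-gated calcium channels, had 7289 and 6999 bp, of which 47.6% and 75.8% were single-copy. GRIK4, GRID1 and CHRNA7 had 4402, 3817 and 3126 bp. After EPHB3 and NTN1, the axon guidance class was led by RGMA (4665 bp), with 3789 bp within 5 kb. Per Mb of sequence nearest to their starts, potassium (3602 bp) and sodium and calcium channel genes (4324 bp) lay above the 2745 bp of all genes. Axon guidance (2108 bp) and neurotransmitter receptor channel genes (1875 bp) lay below it.

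Adhesion and matrix genes varied. Collagen genes had at least 1 kb in 18 of 44 cases (40.9%, 27.7 to 55.6), first COL23A1 (5426 bp), COL24A1 (4908 bp) and COL4A2 (2916 bp). For unclustered cadherin and protocadherin genes it was 17 of 60 (28.3%), with FAT3 (4944 bp), DCHS1 (3372 bp) and CDH4 (3158 bp), for integrin and laminin genes 9 of 39 (23.1%, 12.7 to 38.3), and for metalloproteinase genes 15 of 71 (21.1%), with ADAMTS2 (3212 bp) first. At DCHS1, a large cadherin, all sequence lay within 5 kb, while CDH4 had none there. Of the clustered protocadherins, 9 of 53 had a peak and none had 1 kb, which allows a share of up to 6.76%, the upper Wilson limit. PCDHB8 had the most, with 511 bp. Per Mb of sequence nearest to their starts, collagen (4202 bp) and clustered protocadherin genes (3038 bp) lay above the 2745 bp of all genes. Integrin and laminin (2691 bp), metalloproteinase (2569 bp) and unclustered cadherin and protocadherin genes (792 bp) lay below it.

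Some classes lay below the background share of genes with 1 kb. At least 1 kb was found at 6 of 166 ribosomal protein genes (3.61%, 1.67 to 7.66), 6 of 176 genes of the proteasome, respiratory chain and tRNA synthetases (3.41%, 1.57 to 7.24), 14 of 445 olfactory and taste receptor genes (3.15%, 1.88 to 5.21), 38 of 555 ZNF genes (6.85%, 5.03 to 9.26) and 3 of 149 keratin genes (2.01%). Of 64 replication-dependent histone genes, 6 had a peak and none had 1 kb. Per Mb of sequence nearest to their starts, keratin (5143 bp), ZNF (3525 bp) and olfactory and taste receptor genes (3348 bp) lay above the 2745 bp of all genes. Ribosomal protein genes (1908 bp), the proteasome, respiratory chain and tRNA synthetase class (2084 bp) and histone genes (1788 bp) lay below it. The ribosomal and histone genes have CpG-rich starts, with median CpG ratios of 0.781 and 0.850 compared with 0.686 over all genes. A PHF13 summit within 5 kb was present at 30 ribosomal protein genes (18.1%) and 14 histone genes (21.9%), and an EZH2 summit at 6 (3.61%) and 1 (1.56%). Over all genes the shares were 17.9% for PHF13, which the PHF13 intervals of both classes include, and 21.7% for EZH2. Of the EZH2 sequence of ribosomal protein genes, 15.1% lay at summits within 5 kb. MRPL39 had 7340 bp, all from summits over 50 kb away, whereas 2165 of the 4718 bp of RPL38 came from a peak 1921 bp upstream.

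Epithelial and immune genes lay near or below the background share of genes with 1 kb. Per Mb of sequence nearest to their starts, mucin and claudin (3871 bp) and immune cell genes (4111 bp) lay above the 2745 bp of all genes. Of 41 mucin and claudin genes, 5 (12.2%, 5.32 to 25.5) had at least 1 kb, first MUC6 (1596 bp), CLDN14 (1585 bp) and MUC3A (1346 bp). Of 384 immune cell genes, 38 (9.90%, 7.30 to 13.3) had at least 1 kb. In this class DEFB115 (11004 bp) was one of the distal, gap-flanking genes, with 92.9% of its sequence over 50 kb away and 10727 bp of PHF13 peaks, whereas the antigen-presenting HLA-E had 3049 bp, with no PHF13 peak and none of its sequence within 5 kb. KIRREL3 (3812 bp), an adhesion gene and not an immune gene, fell into the class by the first letters of its symbol. Solute carrier genes reached 57 of 379 (15.0%, 11.8 to 19.0), an interval that includes the background, led by SLC25A48 (3940 bp), SLC1A3 (3182 bp) and SLC9A3 (3162 bp).

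Segmentally duplicated gene families had EZH2 sequence mostly at repeated summits. At least 1 kb was found at 67 of 318 genes (21.1%, 17.0 to 25.9), but 13.5% of their sequence was single-copy, 35.7% of their peaks overlapped a PHF13 peak, and they had 1.37 times as much EZH2 as PHF13 sequence. ANKRD30BL, TSPY10 and MTRNR2L1 led with 15189, 13634 and 10325 bp, and had 10539, 15092 and 9921 bp of PHF13 peaks. In the developmental transcription factor group, 86.5% of the sequence was single-copy, 77 of 1108 EZH2 peaks (6.95%, 5.60 to 8.60) overlapped a PHF13 peak, and the ratio was 4.04. That ratio moved with the peaks used, to 5.56 with single-copy summits and to 16.5 with summits within 5 kb. Over all genes the ratio was also higher near starts, at 3.92 within 5 kb compared with 1.85 for all peaks.

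**Figure D5:**
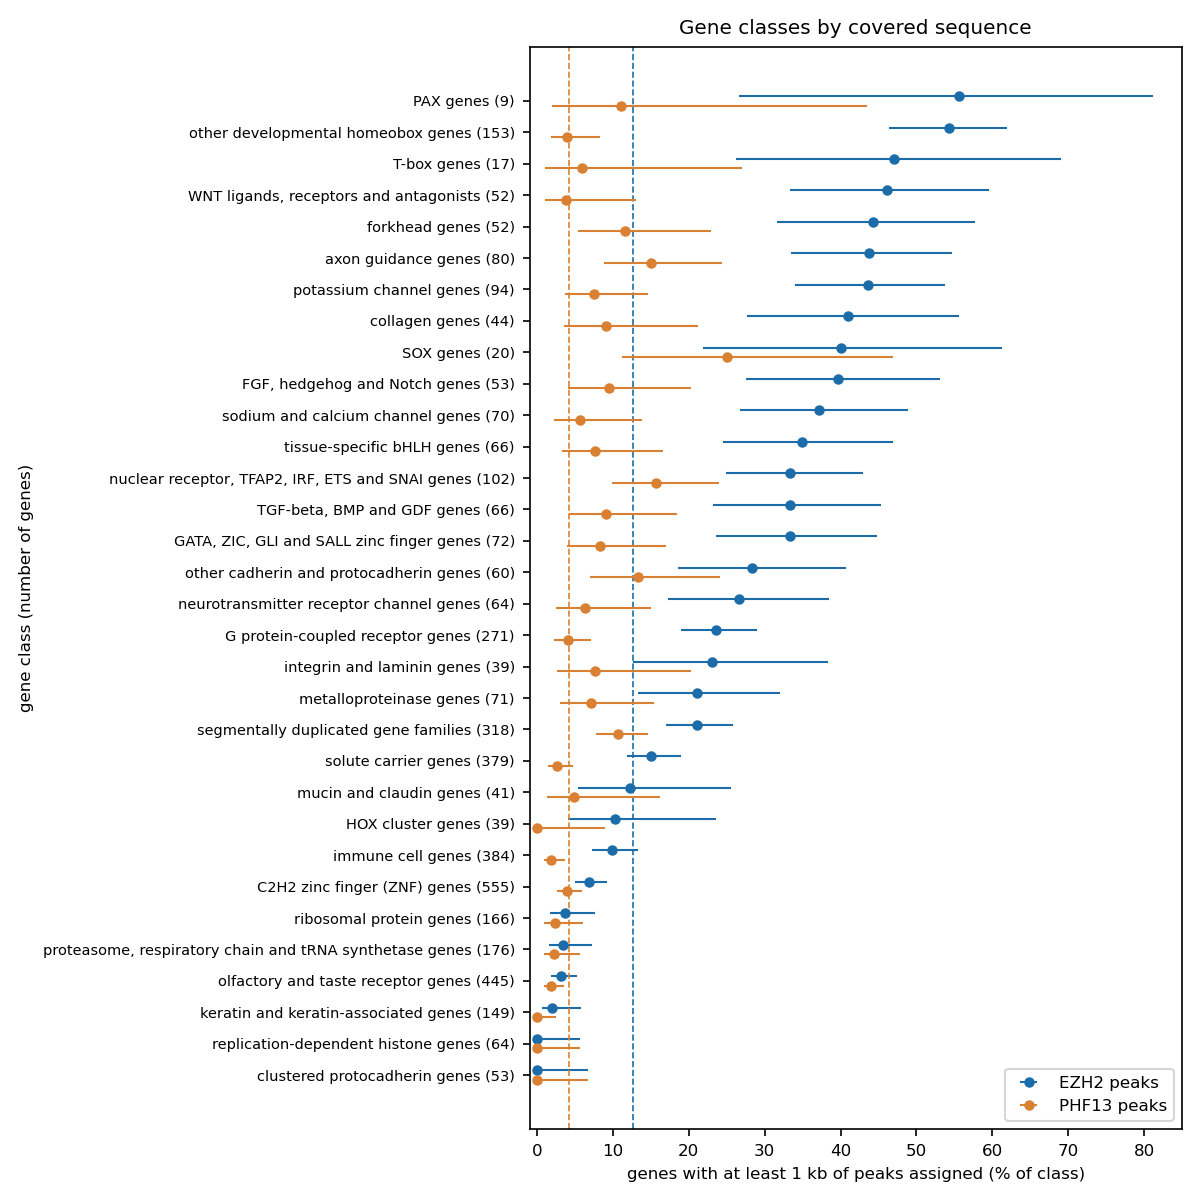
Percentage of the genes of each class with at least 1 kb of EZH2 or PHF13 peaks, with 95% Wilson intervals; the number of genes is in parentheses and dashed lines mark the share over all protein-coding genes (12.7% and 4.15%). PAX, other homeobox, T-box, WNT and forkhead genes lie highest for EZH2, between 44.2% and 55.6%, and histone and clustered protocadherin genes lie at 0.

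The widest and the strongest EZH2 peaks belonged to different genes. Among all single-copy EZH2 peaks within 5 kb of a start, 2.11% overlapped a PHF13 peak, so lack of overlap is usual there. Of the 10 widest EZH2 peaks, 8 lay on single-copy sequence within 5 kb of a start and overlapped no PHF13 peak. They were at EMX1, BARX2, CYP26B1, an enzyme that degrades retinoic acid (3329 bp), IHH, the neurotrophin receptor gene NGFR (3054 bp), the synaptic zinc transporter gene SLC30A3 (3009 bp), LRP2, which encodes the endocytic receptor megalin (2959 bp), and GFI1, a repressor of blood development (2899 bp). The other two, assigned to OR4F16 (5684 bp) and PRIM2 (3314 bp), lay 52450 and 1385796 bp from a start and overlapped PHF13 peaks. Fold enrichment over the local background was 2.70 at EMX1 and 3.53 at LRP2, with 198 and 156 fragments at the summit. The local background there was 72.6 and 43.5 fragments, compared with a median of 7.28 over all EZH2 peaks. EZH2 peaks over 1 kb wide had a median fold of 3.91, compared with 3.13 over all EZH2 peaks. The 5 peaks with the highest fold enrichment, from 26.2 to 32.3, were 289 to 378 bp wide, multi-copy and shared with PHF13, and were assigned to USP9Y, IRS2, TPTE, SENP5 and USP18. At 4 of these 5 genes the peak lay at least 64386 bp from the start, and at SENP5 it lay in an intron 1207 bp upstream.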

How the data were processed

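ChIP-seq peak lists of 1 EZH2 and 1 PHF13 library of PANC-1 cells were analysed, both called against 1 input library that has no list of its own. According to the methods and labels, the authors trimmed reads with Trim Galore 0.4.1, aligned them to hg19 with Bowtie2 2.4.1, used Picard against duplicates, and made the peak lists with MACS2 2.2.7.1. Broad peaks are described for EZH2, but the deposited list is in narrow-peak format with a weakest −log10 q of 1.31. For PHF13 the methods describe a limit equal to a −log10 q of 3, but the deposited list also holds weaker peaks. With a −log10 q of at least 3, genes with 1 kb of PHF13 peaks fell from 836 to 430. Both lists were used as deposited. The deposited columns are peak positions, a score, a fold enrichment (ratio of pileup to local background at the summit) and −log10 p and q values.

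Starts were the 5′ ends of all transcripts of 20163 protein-coding genes of GENCODE 44 on GRCh37. Positions are 1-based. Fragments and background at each summit were solved from the deposited fold and −log10 p, with a relative error under 0.0001 for all 21639 EZH2 peaks, which gave a median of 25 fragments and a background of at least 4.42. Total reads are unknown from the lists. Copy number was the median count in the genome of 24-base words in 100 bp at the summit. No word could be read at 5 summits. The assignment was checked on simulated peaks. Python 3.11.15, pandas 2.3.3, SciPy 1.17.1 and pysam 0.24.0 were used. Alternatives were start sites, q limits, copy number, distance limits, competing genes, peak midpoints and chromosome Y.

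The members, gene lists and classes were chosen with earlier results of these data known. Genes were named when they were among the 25 with the most covered sequence, among the first 3 of their class, among the first 5 with single-copy summits, distal summits, PHF13 sequence or peak number, or at the 10 widest or 5 strongest peaks. Genes outside this rule are given to fill a class or are said to be chosen later.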

Additional observations from a re-analysis of the deposited data

How the results depend on the processing

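There are no replicates, so none could be left out. No paired analysis was possible because each antibody has 1 library. Of 99 alternative values for 11 results, 50 stayed within the interval of the reported value, or within 1.5 times a count, and 49 moved. A reversal of direction was not assessed. The downstream share uses only summits within 5 kb, so it could not change under the 5 kb and 50 kb limits. The causes were not tested. Reported values were an EZH2 to PHF13 ratio of 4.04 at developmental transcription factor genes, 7916 genes with a peak, 2561 with 1 kb, a median distance of 21045 bp, 41.6% of developmental genes with 1 kb, 6.52% of sequence at them, 64.5% downstream, 11.9% at the 100 leading genes and 29.7% of summits within 5 kb.

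With 1 start per gene the distance was 39567 bp, 77.6% lay downstream and 21.2% of summits within 5 kb. With a −log10 q of at least 3 the ratio was 5.68, the distance 18603 bp, and the shares were 6.98% developmental, 65.7% downstream, 13.3% leading and 33.5% within 5 kb. With at least 5 they were 8.78, 11814 bp, 7.85%, 67.3%, 15.5% and 42.4%, with 4058 genes and 33.9% of developmental genes with 1 kb. Single-copy summits gave a ratio of 5.56, 13122 bp, 5 of the 25 leading genes kept, 7.40% developmental, 8.21% leading and 37.8% within 5 kb. Summits within 5 kb gave 16.5, 4369 genes, 1599 with 1 kb, 567 bp, 1 leading gene kept, 28.5% of developmental genes with 1 kb, 7.02% of sequence and 8.58% leading. Summits within 50 kb gave 7.40, 7158 bp, 4 kept, 36.45% and 7.665%. With starts of all annotated genes competing, the values were 9.32, 1663 genes with 1 kb, 2504 bp, 4 kept, 26.9% of developmental genes, 65.7% downstream, 9.13% leading and 58.8% within 5 kb. Leaving out peaks near large gaps gave 17440 bp, 10 kept, 6.96%, 8.70% and 31.9%. That alternative, and the share of developmental genes with 1 kb, were chosen after seeing the data. Peak midpoints, leaving out chromosome Y and a stricter overlap moved none of the values.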

Other observations

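The fragments at a summit were solved as whole numbers from the deposited fold and −log10 p, with a relative error under 0.0001. No EZH2 summit was solved to more than 300 fragments, 39 were solved to 300, and 94 came within 10 fragments of it. Whether 300 is a cap on the pileup or what these summits held was not tested. Of these 94, 85 were multi-copy, 89 lay within 1 Mb of a large assembly gap, 89 overlapped a PHF13 peak and none lay within 5 kb of a protein-coding start. They were assigned to 15 genes, with fold enrichments from 1.23 to 15.9. In the PHF13 list the highest value was 288 fragments, reached by 58 summits, and of the 113 within 10 fragments of it, 102 were multi-copy. The local background at these EZH2 summits ranged from 17.9 to 243 fragments.

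EZH2-covered sequence was uneven among chromosomes. It ranged from 1456 bp per sequenced Mb on chromosome 13 to 4620 on chromosome 19. Chromosome 15 had an EZH2 summit within 5 kb at 28.2% of its 607 genes and chromosome 2 at 27.8% of 1254, compared with 13.1% of 450 on chromosome 22 and 14.7% of 1480 on chromosome 19. On chromosome Y, 140 peaks were called and 0 of 65 genes had one within 5 kb.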
